A study of Mus musculus with 19 samples.

Results

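The collagens and the matrix proteins that bind or crosslink them were followed in allografted mouse medulloblastomas that had been given vehicle or the drug NVP-LDE225. Members were probe sets whose annotation held 1 gene symbol that was a collagen chain or was Lox, Loxl1, Loxl2, Loxl3, Loxl4, Fn1, Sparc, Dcn, Lum, Postn, Fbn1 or Eln. The rule used gene names and no measured value, and it found 101 of 45037 probe sets, for 52 of 18193 genes with a single symbol. Of these, 71 probe sets for 43 genes passed the filter on low signals. The 9 genes that did not pass it were Col10a1, Col17a1, Col24a1, Col26a1, Col4a3, Col4a4, Col6a4, Col6a5 and Loxl4. Their 15 probe sets reached at most 29.9 signal units on any array. The 2 probe sets of Loxl2 carry a second symbol and were not counted as members, and Fbn1 was not analysed here.

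All 19 tumours grew from medulloblastoma cells of genotype Ptch+/-p53-/- placed under the skin of the right flank of nu/nu nude mice, which keep their own stroma and vessels but lack T cells. Tumour RNA was hybridised to Affymetrix expression arrays, with 1 array per tumour. The groups were 8 tumours given 40 mg/kg NVP-LDE225, 8 tumours given 160 mg/kg NVP-LDE225, and 3 tumours given vehicle. The treated tumours carry the status resistant and the vehicle tumours the status sensitive, so that drug exposure and resistance form 1 contrast and cannot be told apart. In their source names, 160 mg/kg tumours 6 and 7 are called resistant and the other treated tumours are called treated. Age, sex and length of treatment are not given in the sources used here.

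Ptch encodes the receptor that holds Smoothened in check, and NVP-LDE225 is a Smoothened antagonist that acts on Hedgehog signalling. Collagen chains wind into triple helices that assemble into fibrils, sheets or beaded filaments in the space between cells. Lysyl oxidases crosslink collagen and elastin by oxidising their lysines, and fibronectin, periostin, decorin and lumican help to organise the fibrils. In solid tumours most fibrillar collagen is made by fibroblasts of the host, and basement membrane collagen lies mainly around vessels. In bulk tissue, fewer cells of a type and less RNA per cell cannot be told apart.

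Signals were MAS5 values, in which each array is scaled on its own. Median signal per array lay between 32.7 and 49.7, and correlations between arrays ran from 0.878 to 0.968, with no identical pair. Vehicle tumour 3 and 160 mg/kg tumour 2 had the lowest median correlation with the other arrays and are called the least similar arrays. Atoh1, a transcription factor of granule neuron precursors and of this tumour type, had 22.5 signal units in 160 mg/kg tumour 2, and Barhl1, another such factor, had 32.7. In the other 18 tumours Atoh1 ran from 352.6 to 1954.3. The summed signal of the 13 measured granule neuron precursor and medulloblastoma markers was 15125 to 17542 at 40 mg/kg, 11702 to 18848 at 160 mg/kg and 12067 to 12702 in vehicle tumours. Where the call of a member for treated against vehicle tumours differed without these 2 arrays, that value is given as well. The labels do not state that each tumour came from its own animal, so p-values may reflect the spread between tumours and not between animals. The small number of vehicle arrays limits the precision.

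Most of the matrix genes did not pass the test between treated and vehicle tumours, and the 2 that did went in opposite directions. Col9a1, a chain of the fibril-associated type IX collagen, rose 4.08-fold. Loxl1, a lysyl oxidase needed for elastic fibres, fell 2.30-fold. In this limma fit, with Benjamini-Hochberg adjustment over all 31143 probe sets that passed the filter and a threshold of 0.05, 2 of 43 members passed, a share of 4.65%, against 5.29% of all 13454 genes. Col9a1 was 1 of 43 members that rose, against 2.84% of all genes, and Loxl1 1 of 43 that fell, against 2.45%. At an unadjusted p under 0.05 the share was 11.6% of members, 5 of 43, against 23.3% of all genes. The members' share of calls was thus near that of all genes, and at the unadjusted level below it.

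Of the 43 members, 30 had a mean log2 signal below that of vehicle tumours, 69.8% against 57.5% of all genes. The median log2 change was -0.26 over the members and -0.06 over all genes. This shift depended on which vehicle tumours were used. Without vehicle tumour 3 the median over members was -0.05, without vehicle tumour 2 it was -0.59, and without the 2 least similar arrays it was 0.01. At 40 mg/kg the median log2 change against vehicle was -0.17 over members and -0.05 over all genes, and 1 of 43 members passed, Col9a1, against 2.55% of all genes. At 160 mg/kg it was -0.35 over members and -0.07 over all genes, and 2 of 43 passed, Col9a1 and Loxl1, against 4.89% of all genes. The comparisons of each dose share the same 3 vehicle tumours.

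**Figure D1:**
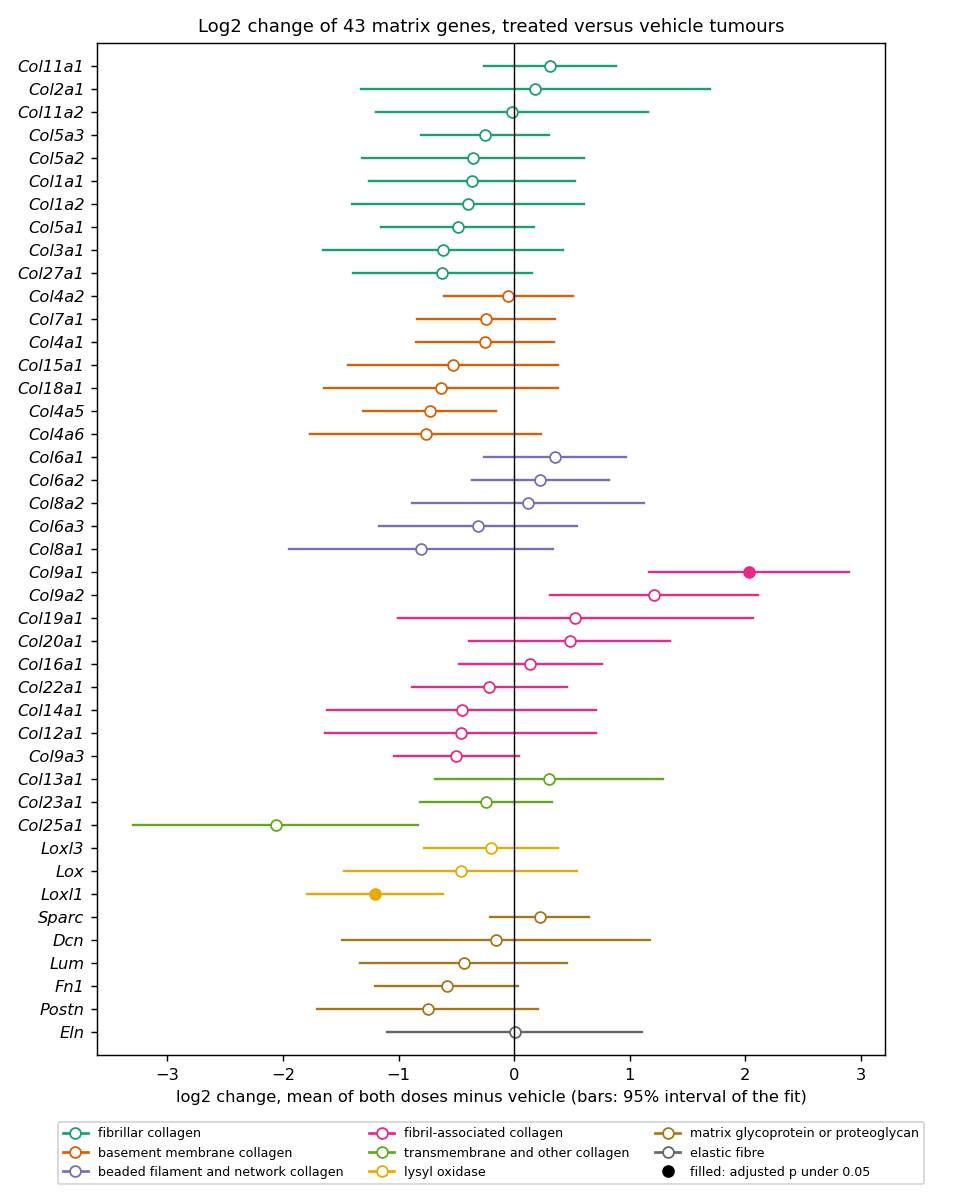
Log2 change of the 43 matrix genes, mean of both dose groups minus vehicle, grouped and coloured by role. Points are estimates from the limma fit, bars are its 95% intervals and filled points passed an adjusted p of 0.05. Col9a1 lies at 2.03 and Loxl1 at -1.20, and Col25a1 has an estimate of -2.06 with an open point.

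Among the fibril-associated collagens, which sit on the surface of fibrils, Col9a1 rose and the other 8 measured members did not pass. Type IX collagen is built from the products of Col9a1, Col9a2 and Col9a3 and is best known from cartilage and the vitreous of the eye. RefSeq lists 2 starts for Col9a1 on the plus strand of chromosome 1 in build GRCm38.p6. The 250 bases before each start are shown because they belong to the matrix gene that rose, and those before Col9a2 because it encodes a partner chain. The windows are chr1:24177360-24177609 for the upstream start of Col9a1, chr1:24194953-24195202 for its downstream start and chr4:121039316-121039565 for Col9a2. Capitals mark matches to 4 motifs searched on both strands, TATAAA (the TATA box), CCAAT (the CCAAT box), ACAANG (a core bound by SOX factors) and GACCACCCA (the core bound by GLI factors).
Col9a1 upstream start: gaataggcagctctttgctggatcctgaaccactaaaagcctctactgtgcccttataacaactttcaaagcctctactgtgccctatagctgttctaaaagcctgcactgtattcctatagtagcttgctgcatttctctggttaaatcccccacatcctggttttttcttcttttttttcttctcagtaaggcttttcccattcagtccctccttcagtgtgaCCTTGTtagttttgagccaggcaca
Col9a1 downstream start: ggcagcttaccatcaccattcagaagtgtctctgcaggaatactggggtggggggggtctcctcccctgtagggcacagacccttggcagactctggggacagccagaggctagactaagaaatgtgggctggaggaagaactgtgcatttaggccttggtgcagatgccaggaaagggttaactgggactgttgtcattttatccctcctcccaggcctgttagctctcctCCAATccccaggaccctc
Col9a2: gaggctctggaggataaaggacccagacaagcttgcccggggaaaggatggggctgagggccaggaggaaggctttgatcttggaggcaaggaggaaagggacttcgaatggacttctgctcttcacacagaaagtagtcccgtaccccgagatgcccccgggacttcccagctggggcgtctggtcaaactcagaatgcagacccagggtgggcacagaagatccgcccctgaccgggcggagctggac
The upstream window of Col9a1 held 1 match to ACAANG on the minus strand, which reads CCTTGT in the printed strand, and the downstream window held 1 CCAAT. The Col9a2 window held none of the 4. Of 32851 windows of this length in the RefSeq table, 12.4% held TATAAA, 33.8% held CCAAT, 36.3% held ACAANG and 0.225% held GACCACCCA. In the 40 windows of 36 member genes the shares were 15%, 32.5%, 25% and 0% in the same order. A match is a description of the letters in the window and does not show that a factor binds there. The windows and motifs were chosen after the values had been seen.

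Col9a1 signals were lowest at 90.4, had a median of 235.6 and were highest at 474.3 at 40 mg/kg. At 160 mg/kg they were 144.1, 180.8 and 514.8 by the same measures, and the vehicle tumours had 55.1, 42.1 and 56.3. Every one of the 16 treated tumours lay above every vehicle tumour. This pattern, all treated above all vehicle, was found for 1.99% of all genes and for Col9a1 alone among the members. Means were 243 ± 139 at 40 mg/kg, 247 ± 137 at 160 mg/kg and 51.2 ± 7.87 in vehicle tumours (SD, n = 8, 8 and 3). The log2 change was 2.03 with a standard error of 0.42 and a 95% interval of 1.16 to 2.90 (limma, adjusted p = 0.00901). The doses gave log2 changes of 1.99 at 40 mg/kg (limma, adjusted p = 0.0233) and 2.07 at 160 mg/kg (limma, adjusted p = 0.013).

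A second probe set of Col9a1 gave a smaller difference. It averaged 84.3 at 40 mg/kg, 89.5 at 160 mg/kg and 54.7 in vehicle tumours, and 7 of 16 treated tumours lay above all vehicle tumours. Its log2 change of 0.65 did not pass (limma, adjusted p = 0.256). Which of the Col9a1 transcripts each probe set reports was not tested. The call of the brighter probe set was kept without vehicle tumour 1, with an adjusted p of 0.0465 in limma. It was lost without vehicle tumour 2 (limma, adjusted p = 0.0618), without vehicle tumour 3 (limma, adjusted p = 0.0592) and without the 2 least similar arrays (limma, adjusted p = 0.0521), while the log2 change stayed between 1.90 and 2.11 whichever 1 tumour was left out. For each dose on its own, the call of Col9a1 was lost when any 1 of the vehicle tumours was left out.

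The partner chains did not follow Col9a1 past the threshold. Col9a2 had a low signal of 35.0 ± 13.1 at 40 mg/kg, 27.1 ± 11.6 at 160 mg/kg and 13.9 ± 10.0 in vehicle tumours, and 12 of 16 treated tumours lay above all vehicle tumours. Its log2 change was 1.21 with a 95% interval of 0.31 to 2.11 (limma, adjusted p = 0.11). Vehicle tumour 3 had a Col9a2 signal of 2.4, and without it the log2 change was 0.49 (limma, adjusted p = 0.674). Col9a3 averaged 783 ± 179 at 40 mg/kg, 617 ± 258 at 160 mg/kg and 966 ± 286 in vehicle tumours. No treated tumour lay above all vehicle tumours for Col9a3, and its log2 change was -0.50 with a 95% interval of -1.04 to 0.04 (limma, adjusted p = 0.268). The estimates for the 3 chains of type IX collagen thus had different signs, and the difference between chains was not tested.

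Cartilage markers were set beside Col9a1. Of 8 listed, 4 passed the filter (Acan, Cnmd, Comp and Sox9), and none of these passed the test. Their summed signal was 229.2 to 404.0 at 40 mg/kg, 141.3 to 527.9 at 160 mg/kg and 325.3 to 418.7 in vehicle tumours, and most of it came from Sox9. Acan, the core protein of cartilage aggrecan, averaged 18.3 at 40 mg/kg, 21.0 at 160 mg/kg and 27.8 in vehicle tumours, a log2 change of -0.48 (limma, adjusted p = 0.533). Cnmd, which encodes the cartilage protein chondromodulin, lay the other way. It ran from 5.9 to 51.8 at 40 mg/kg and from 0.7 to 83.7 at 160 mg/kg, against 6.7, 0.9 and 12.1 in vehicle tumours, and 12 of 16 treated tumours lay above all vehicle tumours. Its log2 change was 1.70 with a 95% interval of 0.20 to 3.19 (limma, adjusted p = 0.176). Over the 4 measured markers, 2 log2 estimates were above 0 and 2 below. Col2a1, the main fibrillar collagen of cartilage, averaged 29.1 at 40 mg/kg, 23.1 at 160 mg/kg and 16.9 in vehicle tumours, with overlapping groups and a log2 change of 0.18 (limma, adjusted p = 0.909). The summed cartilage signal overlapped between all 3 groups.

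Of the remaining fibril-associated collagens, Col20a1 averaged 48.1 ± 32.0 at 40 mg/kg, 27.0 ± 17.0 at 160 mg/kg and 22.2 ± 4.94 in vehicle tumours, with a log2 change of 0.48 (limma, adjusted p = 0.522). The median over the 9 members of this class was 0.14.

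**Figure D2:**
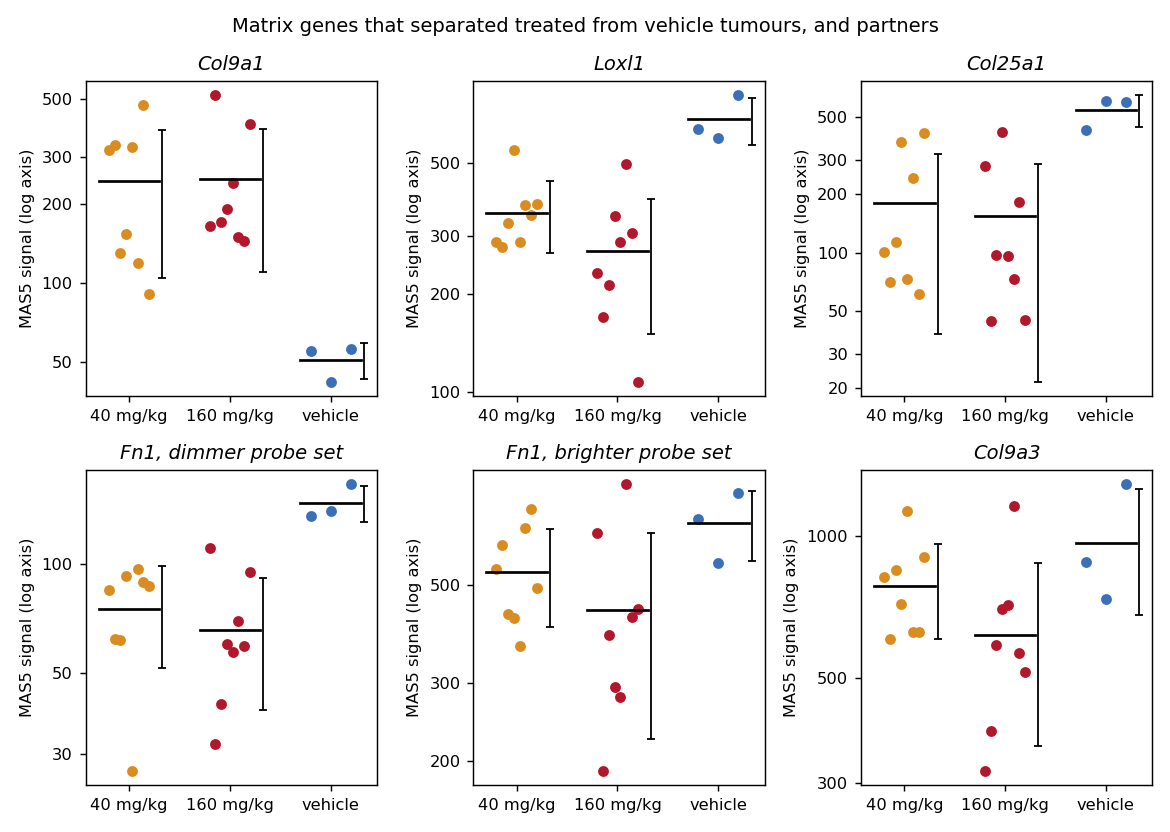
MAS5 signal on a log axis for Col9a1, Loxl1, Col25a1, both probe sets of Fn1 and Col9a3. Each point is 1 tumour, horizontal lines are group means and bars are SD. All 16 treated tumours lie above the vehicle tumours for Col9a1 and below them for Loxl1, Col25a1 and the dimmer Fn1 probe set, while the groups overlap for the brighter Fn1 probe set and for Col9a3.

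Among the lysyl oxidases, Loxl1 fell and Lox and Loxl3 did not pass. Loxl1 signals ran from 277.8 to 548.6 with a median of 337.9 at 40 mg/kg and from 107.6 to 496.5 with a median of 259.9 at 160 mg/kg. The vehicle tumours had 637.3, 599.6 and 806.7. All 16 treated tumours lay below all vehicle tumours, a pattern found for 2.53% of all genes and for 2 of 43 members, Loxl1 and Col25a1. Means were 353 ± 87.6 at 40 mg/kg, 270 ± 119 at 160 mg/kg and 681 ± 110 in vehicle tumours. The log2 change was -1.20 with a standard error of 0.28 and a 95% interval of -1.79 to -0.61 (limma, adjusted p = 0.0203).

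By dose, the log2 change of Loxl1 was -0.96 at 40 mg/kg, which did not pass (limma, adjusted p = 0.0951), and -1.44 at 160 mg/kg, which did (limma, adjusted p = 0.0111). Between 160 and 40 mg/kg it was -0.48 (limma, unadjusted p = 0.0455, adjusted p = 0.721), so the doses were not shown to differ. The call at 160 mg/kg was lost without vehicle tumour 3, and the call over both doses without vehicle tumour 1 (limma, adjusted p = 0.077), vehicle tumour 2 (limma, adjusted p = 0.0627) or vehicle tumour 3 (limma, adjusted p = 0.158). Without the 2 least similar arrays the log2 change was -1.04 (limma, adjusted p = 0.152). Lox, the founding member of the family, averaged 109 ± 38.5 at 40 mg/kg, 82.8 ± 65.6 at 160 mg/kg and 133 ± 80.4 in vehicle tumours, where it ran from 48.8 to 208.7. The groups overlapped, and the log2 change of -0.46 did not pass (limma, adjusted p = 0.603). It was -0.30 without vehicle tumour 1, -1.05 without vehicle tumour 2 and -0.03 without vehicle tumour 3.

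Col25a1 had the lowest log2 estimate of all members, and it missed the threshold narrowly. It encodes a transmembrane collagen made by neurons that is found in amyloid plaques. The 250 bases before its RefSeq start, chr3:130180595-130180844 on the plus strand in GRCm38.p6, are shown because all treated tumours lay below vehicle tumours for this gene, with capitals as above.
Col25a1: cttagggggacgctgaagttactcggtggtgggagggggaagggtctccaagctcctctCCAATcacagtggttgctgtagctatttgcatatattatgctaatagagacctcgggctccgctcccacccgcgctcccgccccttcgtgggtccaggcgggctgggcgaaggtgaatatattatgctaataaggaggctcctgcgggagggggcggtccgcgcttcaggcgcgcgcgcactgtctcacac
The window held 1 CCAAT and none of the other 3 motifs. Col25a1 signals ran from 61.4 to 413.0 with a median of 107.2 at 40 mg/kg, and from 44.3 to 419.2 with a median of 96.8 at 160 mg/kg. Vehicle tumours had 426.3, 605.6 and 598.8. The highest treated tumour lay just under the lowest vehicle tumour, and treated tumours spread widely among themselves. The log2 change was -2.06 with a standard error of 0.59 and a 95% interval of -3.30 to -0.83 (limma, adjusted p = 0.0505). It passed in 5 of 19 fits that each left out 1 tumour, and in 0 of the 3 that left out a vehicle tumour. A second, dimmer probe set averaged 33.6 at 40 mg/kg, 29.4 at 160 mg/kg and 58.2 in vehicle tumours, with a log2 change of -1.12 (limma, adjusted p = 0.26). The other transmembrane collagens that were measured, Col13a1 and Col23a1, had log2 changes of 0.30 and -0.24 and did not pass.

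The fibrillar collagens, which form the load-bearing fibres of connective tissue, gave no call in 10 measured genes, and 8 of them had a log2 estimate below 0. Col1a1 and Col1a2 encode the chains of type I collagen, and Col3a1 that of type III collagen. Col1a1 ran from 150.8 to 532.3 with a median of 247.5 at 40 mg/kg and from 72.2 to 582.9 with a median of 114.2 at 160 mg/kg, against 306.5, 156.2 and 324.9 in vehicle tumours. The groups overlapped, the highest value being that of 160 mg/kg tumour 6. The log2 change against vehicle was -0.37 with a 95% interval of -1.25 to 0.52 (limma, adjusted p = 0.643). Col1a2 averaged 858 ± 307 at 40 mg/kg, 558 ± 584 at 160 mg/kg and 791 ± 293 in vehicle tumours, with a log2 change of -0.40 (limma, adjusted p = 0.654). Col3a1 averaged 1700 ± 857 at 40 mg/kg, 1068 ± 655 at 160 mg/kg and 1863 ± 700 in vehicle tumours, with a log2 change of -0.61 and a 95% interval of -1.65 to 0.42 (limma, adjusted p = 0.489). Col5a1, whose product starts fibrils, averaged 126 ± 28.6 at 40 mg/kg, 102 ± 64.8 at 160 mg/kg and 154 ± 56.2 in vehicle tumours (log2 change -0.49, limma, adjusted p = 0.379). The intervals of Col1a1 and Col3a1 span both falls and rises, so these arrays did not settle the sign of a change.

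In the 7 basement membrane collagens all log2 estimates were below 0, with a median of -0.53, and none passed. Col4a1 and Col4a2 encode the chains of the common type IV network. Col4a1 averaged 1122 ± 317 at 40 mg/kg, 1096 ± 565 at 160 mg/kg and 1257 ± 248 in vehicle tumours (log2 change -0.25, limma, adjusted p = 0.634). A second Col4a1 probe set had the opposite sign, with a log2 change of 0.21 (limma, adjusted p = 0.758). Col4a2 averaged 345 ± 97.1 at 40 mg/kg, 297 ± 130 at 160 mg/kg and 320 ± 74.0 in vehicle tumours, with a log2 change of -0.05 (limma, adjusted p = 0.935).

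Col4a5, a chain of the type IV network altered in Alport syndrome, had lowest, median and highest signals of 117.4, 150.4 and 336.5 at 40 mg/kg and of 68.5, 148.6 and 210.8 at 160 mg/kg. Vehicle tumours had 235.4, 250.3 and 301.5. In 14 of 16 treated tumours Col4a5 was below all vehicle tumours, and its log2 change of -0.73 had a 95% interval of -1.31 to -0.16 (limma, adjusted p = 0.129). Col18a1, which carries endostatin at its end, was at 127.9 to 855.4 with a median of 274.0 at 40 mg/kg and at 68.7 to 693.2 with a median of 179.4 at 160 mg/kg, against 428.3, 311.9 and 347.8 in vehicle tumours. All but 3 treated tumours lay below the vehicle tumours, while 40 mg/kg tumour 4 and 160 mg/kg tumour 6 lay above them (log2 change -0.63, limma, adjusted p = 0.464).

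The beaded filament and network collagens gave estimates on both sides of 0, with a median of 0.12 and no call in 5 genes. Col6a1, a chain of the type VI microfibrils around cells, averaged 229 ± 79.2 at 40 mg/kg, 178 ± 57.8 at 160 mg/kg and 163 ± 77.3 in vehicle tumours. Its log2 change was 0.35 with a 95% interval of -0.26 to 0.96 (limma, adjusted p = 0.503).

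Of the matrix glycoproteins and proteoglycans, 4 of 5 had a log2 estimate below 0 and none passed by its brightest probe set. Fn1 encodes fibronectin, which links cells to collagen. Its brighter probe set averaged 536 ± 133 at 40 mg/kg, 439 ± 216 at 160 mg/kg and 692 ± 124 in vehicle tumours, with a log2 change of -0.58 (limma, adjusted p = 0.257). The dimmer Fn1 probe set ran from 27.0 to 96.7 with a median of 86.0 at 40 mg/kg and from 32.0 to 110.3 with a median of 59.7 at 160 mg/kg, against 135.6, 139.5 and 165.7 in vehicle tumours. All 16 treated tumours lay below the vehicle tumours in this probe set, and its log2 change of -1.12 passed (limma, adjusted p = 0.0442). At the level of probe sets, 3 of 71 members passed, 4.23%, against 4.47% of all probe sets. The dimmer set was called in 10 of 19 fits that each left out 1 tumour and in none that left out a vehicle tumour. Without the 2 least similar arrays its log2 change was -0.97 and did not pass (limma, adjusted p = 0.198). The call was also lost with array medians subtracted, no filter or no variance trend (limma, adjusted p = 0.0507, 0.0581 and 0.0588). At 160 mg/kg the dimmer set had a log2 change of -1.22 (limma, adjusted p = 0.0442), a call lost in the same settings and without any 1 vehicle tumour. At 40 mg/kg it did not pass (limma, adjusted p = 0.105). The 2 Fn1 probe sets thus disagreed in the call and shared the sign.

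Sparc, a collagen-binding protein of remodelling tissue, averaged 1347 ± 148 at 40 mg/kg, 1065 ± 357 at 160 mg/kg and 1025 ± 253 in vehicle tumours (log2 change 0.22, limma, adjusted p = 0.551). Postn encodes periostin, a fibroblast product that promotes collagen crosslinking. Postn ran from 347.2 to 1006.6 at 40 mg/kg and from 174.3 to 1252.7 at 160 mg/kg, against 679.2, 646.5 and 1799.7 in vehicle tumours. Vehicle tumour 3 was the highest of all tumours. The log2 change of Postn was -0.75 with all tumours (limma, adjusted p = 0.352) and -0.27 without vehicle tumour 3. Dcn and Lum, small proteoglycans that limit fibril width, had log2 changes of -0.16 and -0.44 with overlapping groups (limma, adjusted p = 0.912 and 0.576). Eln, which encodes elastin, the substrate of lysyl oxidases in elastic fibres, averaged 161 ± 66.9 at 40 mg/kg, 195 ± 146 at 160 mg/kg and 150 ± 38.5 in vehicle tumours. The log2 change of Eln was 0.00 with a 95% interval of -1.10 to 1.10, beside the fall of Loxl1.

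**Figure D3:**
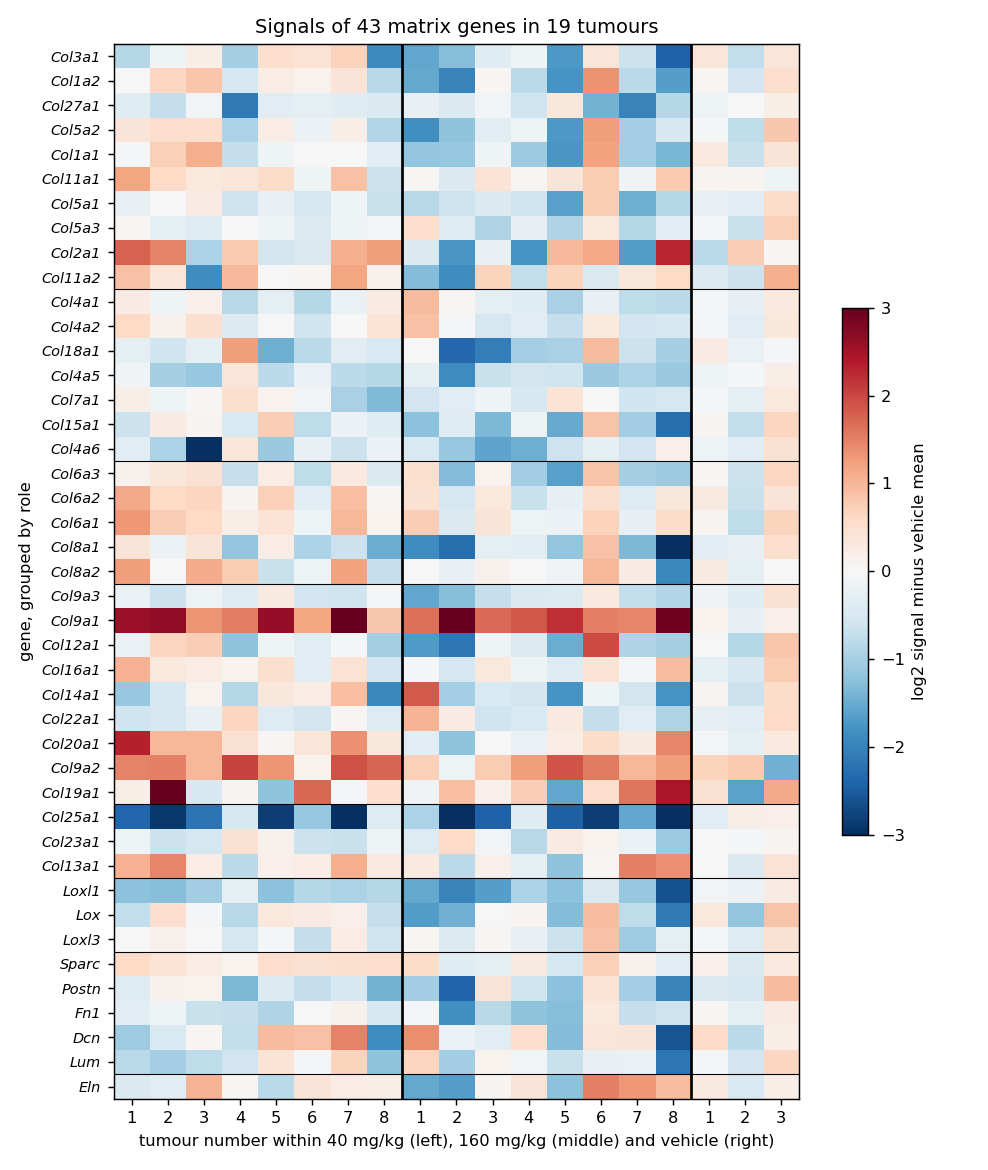
Log2 signal of the 43 matrix genes minus the vehicle mean of the same gene, in 8 tumours at 40 mg/kg, 8 at 160 mg/kg and 3 given vehicle. Genes are grouped by role and colour runs from 3 below (blue) to 3 above (red). The column of 160 mg/kg tumour 6 is red for many fibrillar collagens, whereas most other 160 mg/kg columns are blue.

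The dose comparison asked whether matrix genes differed between 160 and 40 mg/kg. No member passed, and neither did any of the 13454 genes or 31143 probe sets (limma, 0% called), while 997 genes, 7.41%, had an unadjusted p under 0.05. Among the members 6 of 43 did, 14.0%, and all 6 were lower at 160 mg/kg, a direction and level shared by 4.50% of all genes. They were Col1a1, Col1a2, Sparc, Col20a1, Col6a2 and Loxl1, of which Col6a2 is named after its value was seen. In log2 estimate, 38 of 43 members lay lower at 160 mg/kg, 88.4% against 54.6% of all genes. The median difference was -0.35 over members and -0.02 over all genes. Most stromal marker lists lay the same way, with lower log2 estimates at 160 mg/kg for 12 of 13 fibroblast markers that are not members, 11 of 12 macrophage markers, 10 of 11 endothelial markers and 7 of 8 mural markers. Their medians were -0.29, -0.23, -0.06 and -0.15 in that order, and none of these markers passed. Adipocyte markers lay the other way, with 3 of 3 higher at 160 mg/kg and a median of 0.68. Skin epithelium markers were mixed. The dim Krt5 and Lor were higher at 160 mg/kg, while the bright Krt10 was lower, with a log2 difference of -1.29. The median over the 3 skin markers was 0.40, whereas their summed signal had a median of 2050 at 160 mg/kg and 3790 at 40 mg/kg. None of the adipocyte or skin markers passed.

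Col1a1 averaged 180 ± 169 at 160 mg/kg and 284 ± 126 at 40 mg/kg, a log2 difference of -0.88 with a 95% interval of -1.59 to -0.18 (limma, unadjusted p = 0.0168, adjusted p = 0.674). Its median was 114.2 at 160 mg/kg and 247.5 at 40 mg/kg, and the ranges overlapped. Col1a2 differed by -0.99 (limma, unadjusted p = 0.0168, adjusted p = 0.674). Sparc lay at 693.9 to 1651.9 at 160 mg/kg and at 1081.6 to 1517.7 at 40 mg/kg, a log2 difference of -0.40 (limma, unadjusted p = 0.0233, adjusted p = 0.678). All 10 fibrillar collagens, all 5 beaded filament and network collagens and all 3 lysyl oxidases had lower log2 estimates at 160 mg/kg. Without 160 mg/kg tumour 6 the difference of Col1a1 was -1.17 (limma, adjusted p = 0.204), and the median over members was -0.43.

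**Figure D4:**
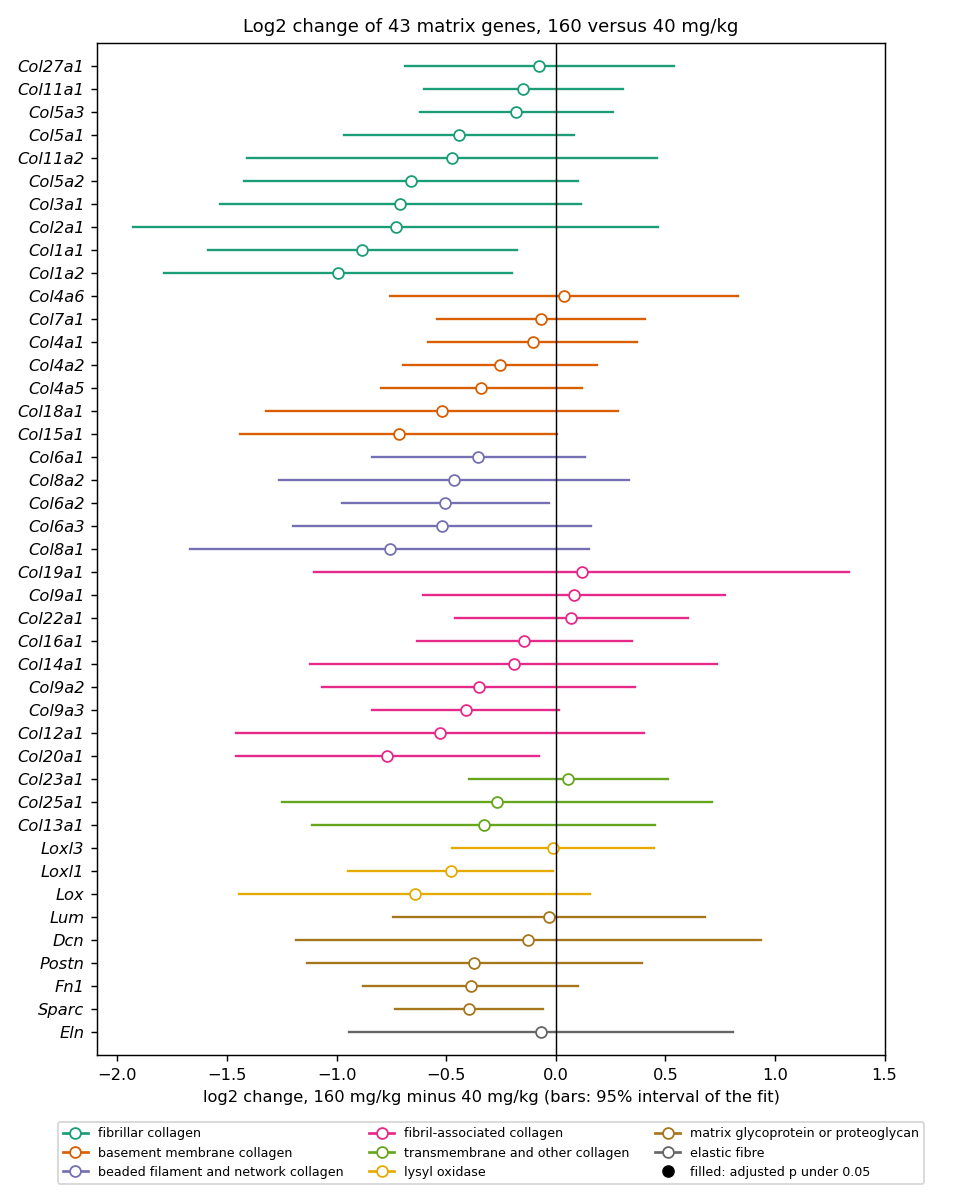
Log2 difference of the 43 matrix genes, 160 mg/kg minus 40 mg/kg, grouped and coloured by role, with 95% intervals of the limma fit. No point is filled because none passed an adjusted p of 0.05. Estimates lie left of 0 for 38 of the 43 genes.

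Tumours of the same dose differed widely in matrix signal. The summed signal of the 43 members ran from 9710 to 14338 at 40 mg/kg, from 6855 to 17842 at 160 mg/kg and from 9865 to 17417 in vehicle tumours. In 160 mg/kg tumour 6 the sum was 17842, and in the other 7 tumours of that dose it was at most 11339. The same tumour had the highest macrophage marker sum, 6078 over 12 genes, and the highest mural cell marker sum, 2391 over 8 genes. The 13 fibroblast markers that are not members summed to 1965 to 3399 at 40 mg/kg, 1734 to 2738 at 160 mg/kg and 1377 to 2382 in vehicle tumours. None of the 13 passed in any of the 4 comparisons, and their median log2 change was -0.02 for treated against vehicle tumours and -0.29 for 160 against 40 mg/kg.

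Skeletal muscle markers varied between tumours. Their sum was 277 to 20805 at 40 mg/kg, 292 to 8572 at 160 mg/kg and 1566 to 4493 in vehicle tumours. The median log2 difference of the 12 muscle genes was -1.33 for 160 against 40 mg/kg, with 11 of 12 lower and none past the test. Of 8 listed skin epithelium markers 3 were measured, and their sum, mostly Krt10, was 2259 to 5331 at 40 mg/kg, 299 to 3410 at 160 mg/kg and 5193 to 5929 in vehicle tumours. None of the measured mural (8), macrophage (12), skeletal muscle (12), adipocyte (3) or skin (3) markers passed for treated against vehicle tumours, and of 11 endothelial markers 1 fell, the VEGF receptor Flt1 (log2 change -0.71, limma, adjusted p = 0.0217). The 13 granule neuron precursor and medulloblastoma markers lay on both sides of 0, with 6 log2 estimates above vehicle and 7 below. Their median log2 change was -0.08, in a range of -0.90 to 3.34. Of these 13 markers 3 rose and none fell, against 2.84% and 2.45% of all genes. They were Cntn2, which encodes a contactin on the surface of differentiating neurons (log2 change 3.34, limma, adjusted p = 0.000309), and the neural transcription factors Neurod1 (log2 change 1.22, limma, adjusted p = 0.0125) and Zic1 (log2 change 0.51, limma, adjusted p = 0.0179). The part of tumour cells, muscle, skin, vessel, macrophage or mural tissue in the differences of matrix genes was not tested.

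The chains of type I collagen varied together from tumour to tumour. Over the 16 treated tumours, Col1a1 and Col1a2 had a Pearson r of 0.94 and a Spearman rho of 0.94 on the log2 scale. Relations of Col1a1 with 13 genes were computed, with 100000 permutations each, for which the smallest p is 1e-05. These permutations ran over all 16 treated tumours without regard to dose, so pooled values also hold any difference between doses. The adjusted permutation p over the 13 was 6.5e-05 for r and 0.00013 for rho in Col1a2. Within 40 mg/kg r was 0.86 (exact permutation over 8 tumours, adjusted p = 0.0559), and within 160 mg/kg it was 0.94 (exact permutation over 8 tumours, adjusted p = 0.0264). The rho within 160 mg/kg was 0.83 and did not pass (exact permutation, adjusted p = 0.0944). Without 160 mg/kg tumours 5 and 6, the farthest from the Col1a1 median, the r over treated tumours was 0.91. Within 160 mg/kg, leaving out tumours 3 and 6, the farthest from the median of that dose, gave an r of 0.53 over 6 tumours. That step also narrows the range of Col1a1, and how far the relation within this dose rests on those tumours was not tested.

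Other fibril genes followed Col1a1 less closely. For Col5a2, whose product joins type V fibrils, r was 0.86 and rho 0.85 (permutation, adjusted p = 6.5e-05 for r), and r was 0.76 without 160 mg/kg tumours 5 and 6. For Postn, r was 0.78 and rho 0.79 (permutation, adjusted p = 0.00191 for r), and for Col3a1, r was 0.69 and rho 0.73 (permutation, adjusted p = 0.01 for r). Within doses r for Postn was 0.88 at 40 mg/kg and 0.76 at 160 mg/kg, and for Col3a1 it was 0.44 at 40 mg/kg and 0.76 at 160 mg/kg. Over the treated tumours without 160 mg/kg tumours 5 and 6, r was 0.75 for Postn and 0.62 for Col3a1. Within 160 mg/kg and without tumours 3 and 6, r was 0.12 for Postn, 0.37 for Col5a2, against 0.84 with all 8 tumours, and 0.61 for Col3a1. The Postn and Col5a2 relations within this dose were thus weaker without those tumours, over a narrower range of Col1a1. None of these within-dose values passed after adjustment (exact permutation, lowest adjusted p = 0.0559 for Postn at 40 mg/kg).

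For the endothelial marker Pecam1, r was 0.55 and rho 0.53 (permutation, adjusted p = 0.0438 and 0.0717), and r was 0.47 without 160 mg/kg tumours 5 and 6. Within doses r for Pecam1 was 0.28 at 40 mg/kg and 0.41 at 160 mg/kg, and neither passed (exact permutation, adjusted p = 0.82 and 0.32). Loxl1 gave r = 0.44 and rho = 0.43 over all treated tumours (permutation, adjusted p = 0.141 and 0.161), with r of -0.61 within 40 mg/kg and 0.54 within 160 mg/kg. Sparc and Fn1 had r of 0.60 and 0.58 with Col1a1 (permutation, adjusted p = 0.0362 and 0.0388). Their rho was 0.53 and 0.59 (permutation, adjusted p = 0.0717 and 0.0479). Without 160 mg/kg tumours 5 and 6, r was 0.40 and 0.39. Within 40 mg/kg r was -0.06 and 0.15, and within 160 mg/kg 0.58 and 0.61. None of these passed within a dose (exact permutation, lowest adjusted p = 0.248). Col4a1, Col18a1, Dcn, the fibroblast marker Pdgfra and the muscle gene Acta1 had r of 0.26, 0.32, 0.26, 0.30 and 0.06, and none passed after adjustment.

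Members that lie next to each other in the genome were compared as 6 pairs, a choice made after values had been seen. Col4a1 and Col4a2 on chromosome 8 had an r of 0.93 and a rho of 0.92 over the 16 treated tumours. Col6a1 and Col6a2 on chromosome 10 had 0.95 and 0.91, and Dcn and Lum on chromosome 10 had 0.89 and 0.85. In each of these 3 pairs the adjusted permutation p of r over the 6 pairs was 2e-05. Within 40 mg/kg their r was 0.98, 0.94 and 0.90, and within 160 mg/kg 0.91, 0.95 and 0.89, with an adjusted exact permutation p of at most 0.0114. Without the 2 tumours farthest from the median, r was 0.89 for the Col4 pair, 0.95 for the Col6 pair and 0.80 for Dcn and Lum. Within 160 mg/kg, the same step gave 0.68 for the Col4 pair and 0.69 for Dcn and Lum.

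Adjacency did not always go with shared variation. Col3a1 and Col5a2 on chromosome 1 had r = 0.70 and rho = 0.68 (permutation, adjusted p = 0.00419 and 0.0074), and 0.64 and 0.68 within 40 and 160 mg/kg, where neither passed. Without the 2 tumours of each dose farthest from its Col3a1 median these became -0.51 and 0.96, over 6 tumours each. Col4a5 and Col4a6 on chromosome X had r = 0.40 and rho = 0.30 (permutation, adjusted p = 0.157 and 0.302). Col9a1 and its neighbour Col19a1 on chromosome 1 had r = 0.09 and rho = 0.05 (permutation, adjusted p = 0.753 and 0.848). Col19a1 averaged 27.4 ± 35.9 at 40 mg/kg, 25.1 ± 22.3 at 160 mg/kg and 15.7 ± 13.1 in vehicle tumours, with a log2 change of 0.53 that did not pass (limma, adjusted p = 0.708).

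**Figure D5:**
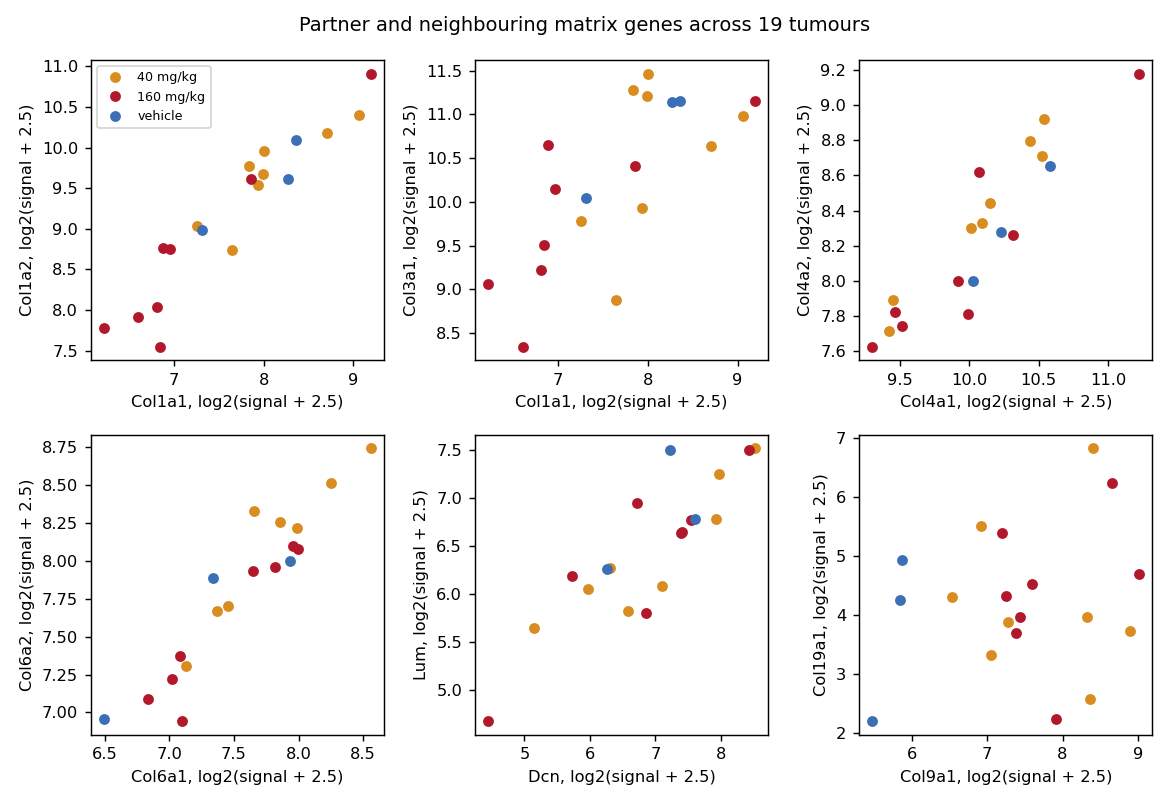
Log2(signal + 2.5) of 6 pairs of matrix genes, with 1 point per tumour coloured by group. Points of Col1a1 with Col1a2, Col4a1 with Col4a2, Col6a1 with Col6a2 and Dcn with Lum lie along a line, with r of 0.94, 0.93, 0.95 and 0.89 over treated tumours. Those of Col1a1 with Col3a1 scatter more, and Col9a1 shows no line with Col19a1.

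The machinery around collagen was followed in 5 gene lists, beside 5.29% of all genes called for treated against vehicle tumours. Of 18 measured genes that modify and process procollagen, none passed for treated against vehicle tumours, with a median log2 change of -0.13. None of 27 other matrix glycoproteins and proteoglycans passed either, with a median of -0.06. Of 16 matrix proteases and inhibitors, 1 rose and none fell. This was Timp3, an inhibitor of matrix metalloproteinases that is itself bound to the matrix. Timp3 ran from 109.8 to 272.2 at 40 mg/kg and from 91.4 to 227.6 at 160 mg/kg, against 30.3, 40.2 and 53.7 in vehicle tumours, so that all treated tumours lay above all vehicle tumours. Its log2 change was 1.87 with a standard error of 0.26 (limma, adjusted p = 0.000667).

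Among 10 receptors for collagen and fibronectin, Itgav, the alpha-V integrin chain that binds fibronectin and activates latent TGF-beta, was the single call. Itgav averaged 1657 ± 193 at 40 mg/kg, 1450 ± 409 at 160 mg/kg and 2254 ± 127 in vehicle tumours, with a log2 change of -0.56 (limma, adjusted p = 0.0431). The groups overlapped, with 2311.8 in 160 mg/kg tumour 5 against 2132.7, 2244.8 and 2385.2 in vehicle tumours. Of 15 genes of TGF-beta signalling, a pathway known to drive collagen transcription, none passed over both doses. At 160 mg/kg Tgfbr2, a TGF-beta receptor, fell against vehicle, 1 of 15 genes beside 4.89% of all genes, with 219 ± 77.2 at 160 mg/kg and 408 ± 24.8 in vehicle tumours (log2 change -0.97, limma, adjusted p = 0.0347). It averaged 320 ± 67.1 at 40 mg/kg, which did not pass against vehicle (limma, adjusted p = 0.426).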

How the data were processed

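Expression was measured in 19 tumours with 1 Affymetrix array each. The authors deposited 1 linear signal intensity per probe set and array, computed with MAS5 per the submitters' processing notes. MAS5 scales each array separately, and the mean after trimming 2% at each end was between 149.367 and 149.485 on every array. Not given in the sources used here are the scaling target, scan dates and any genome build. The table's probe sets are those of the full mouse array, whereas the series text names a smaller one. Probe sets were named from the platform annotation, where 34945 had 1 symbol, 932 several and 9160 none. All 52 member genes matched RefSeq GRCm38.p6 by gene identifier, with 0 symbols changed. Groups came from the sample descriptions, and 64 control probe sets were left out.

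From these values log2(signal + 2.5) was computed, 2.5 being the 10th percentile of all values. Because of the added 2.5, the log2 changes understate those of dim probe sets. A probe set was kept if 3 or more arrays had it above their own 40th percentile. One limma fit (version 3.58.1 in R 4.3.3, lmFit and eBayes with a variance trend) of 3 group means over all arrays, with 16 residual degrees of freedom, gave the 4 comparisons. Tests were two-sided, and p-values were adjusted by Benjamini-Hochberg over all 31143 kept probe sets. A gene is its kept probe set with the highest mean. The fit was tested on simulated data. Correlations used permutation in Python 3.11.15.

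Genes named were members called in any comparison, up to 4 with the smallest p in each, the 5 with the highest mean signal and a fixed panel. Members and lists were chosen with earlier results of these data known, and their counts and medians are descriptions. Same-numbered tumours of different groups did not deviate together (14 pairs, correlations from -0.13 to 0.09), so that the numbers were not taken as pairs. Alternatives covered normalization, pseudocount, filter, variance trend, array weights, probe set choice, a block, the samples fitted and each tumour left out.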

Additional observations from a re-analysis of the deposited data

Results flagged for a closer look

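There were 44 groups of 8 tumours, 22 named genes at each dose. Gaps were taken on the log2 scale of the tests, whereas the values below are signals. On the log2 scale, 2 groups held a tumour whose gap to the next was over 0.526 of the group's range. Chance gives about 1 in 20 such groups. Both were 40 mg/kg tumour 4. Col18a1, a basement membrane collagen, had 855.4 signal units there and 295.6 in the next highest tumour of that dose. Loxl1 had 548.6 there and 374.9 in the next highest. Loxl1 in that tumour was still below all vehicle tumours, and Col18a1 was above them. The same tumour had the lowest skeletal muscle marker sum of its dose, 276.7, and the lowest macrophage marker sum, 780.5. The part of these tissues in either value was not tested.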

How the results depend on the processing

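The number of members called for treated against vehicle tumours was 2. It was 6 with array weights, 0 without the 2 least similar arrays and 0 to 3 when 1 tumour was left out. At 40 mg/kg it was 1, and it was 5 with array weights, 0 with the mean of a gene's probe sets, 0 without the 2 arrays, 2 with the compared groups fitted alone and 0 to 2 when 1 tumour was left out. At 160 mg/kg it was 2, and it was 8 with array weights, 0 without the 2 arrays and 0 to 4 when 1 tumour was left out, the 4 without 160 mg/kg tumour 6. For 160 against 40 mg/kg it was 0 under all settings tried. Over all probe sets, array weights gave 8907 calls for treated against vehicle tumours, and leaving out the 2 arrays gave 274, against 1392. With the replicate number as a block, 2 members passed over both doses and 2 at 160 mg/kg, and 1 passed at 40 mg/kg, which was Loxl1 and not Col9a1. The block gave 819 probe sets over both doses.

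The median over members ranged when 1 tumour was left out from -0.59 to -0.05 over both doses, from -0.39 to 0.16 at 40 mg/kg, from -0.67 to -0.16 at 160 mg/kg and from -0.43 to -0.24 between doses. Without the 2 arrays it was 0.01, 0.16, -0.13 and -0.24 in that order, and with the replicate block -0.20, -0.10, -0.35 and -0.35.

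Some log2 changes near 0 that never passed turned sign. For treated against vehicle tumours Col4a2 became 0.018 with array medians subtracted, 0.028 with array weights, 0.26 with the replicate block and 0.11 without the 2 arrays. Col4a1 became 0.16 and Eln -0.48 with the block, Eln became -0.089 with array weights and Lox 0.015 without the 2 arrays. With 1 tumour left out, Col4a2 ranged from -0.20 to 0.12, Col6a1 from -0.029 to 0.69, Dcn from -0.54 to 0.13 and Eln from -0.22 to 0.14. Between doses Lum became 0.020 with quantile normalization, 0.026 with array medians subtracted, 0.092 with array weights and 0.053 without the 2 arrays. Col25a1 became 0.17, Col9a1 -0.18 and Eln 0.00085 with array weights, and Col9a1 became -0.088 and Eln 0.17 without the 2 arrays. With 1 tumour left out, Col9a1 ranged from -0.088 to 0.25, Dcn from -0.38 to 0.21, Eln from -0.29 to 0.17 and Lum from -0.19 to 0.21. The cause of these changes was not tested.

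Col9a1 passed in 17 and Loxl1 in 16 of 19 fits that left out 1 tumour. Both kept the sign of their log2 change over both doses under every setting. Col25a1 passed with quantile normalization (limma, adjusted p = 0.0453), a pseudocount of 16 (limma, adjusted p = 0.045), a filter at the 60th percentile (limma, adjusted p = 0.0417), array weights (limma, adjusted p = 0.00268) and the compared groups alone (limma, adjusted p = 0.0464). Col25a1 did not pass with array medians subtracted, a pseudocount of 1, no filter, no variance trend, the replicate block or the mean of its probe sets. In those settings the adjusted p in limma was 0.0514 to 0.0849. Without the 2 least similar arrays its log2 change was -1.89 (limma, adjusted p = 0.213). The 3 vehicle arrays limit what could be detected. Dim members such as Col9a2 and Col20a1 lie near the filter, but brighter members were not always more precise. The standard error of the log2 change over both doses was 0.42 for Col20a1, 0.50 for Col3a1 and 0.59 for Col25a1.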
